A study of Mus musculus with 18 samples.

Results

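The gut peptides cholecystokinin (Cck), gastrin (Gast), guanylin (Guca2a) and uroguanylin (Guca2b), and the receptors guanylate cyclase C (Gucy2c), Cckar and Cckbr, were followed in isolated mouse pancreatic islets. These 7 genes, of 22180 genes measured, were chosen by their log2 signals in db/db and lean KsJ islets at 16 weeks, in an earlier look at the same data, and each was read from its own transcript cluster, the one with the highest mean where a gene had several. Islets came from C57BL/KsJ db/db mice (db/db), C57BL/6J ob/ob mice (ob/ob), C57BL/KsJ control mice (lean KsJ) and C57BL/6J control mice (lean 6J), each at 6 and 16 weeks of age. The db/db mouse lacks the long form of the leptin receptor and the ob/ob mouse lacks leptin, in all tissues, and both become obese. A table of 16 arrays held 2 arrays in each of the 8 groups, and a second table, from another array design, held a further db/db and a further lean KsJ array at 16 weeks. The labels name neither sex nor whether arrays came from separate or pooled animals, so p-values measure only the spread between these arrays, which may be technical.

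Guanylate cyclase C is the intestinal receptor for guanylin and uroguanylin. Binding raises cyclic GMP inside the epithelial cell and drives the secretion of chloride and water into the gut. Cholecystokinin is released by I cells of the small intestine and makes the gallbladder contract and the pancreas secrete enzymes, and gastrin is released by G cells of the stomach and stimulates acid secretion. Cckar binds cholecystokinin and Cckbr binds both peptides. Gastrin is expressed in the fetal pancreas, and cholecystokinin expression has been described in islets of obese mice.

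All values are log2 signals per transcript cluster, and differences are log2 differences with their standard error. A gene was called where its limma adjusted p was under 0.05, over the 15526 genes with a mean of at least 2.99, the 30th percentile. Shares of all genes are shares of these 15526. Of the members, 6 passed this filter, and Cckbr, with a mean of 2.75, did not. The db/db and lean KsJ arrays at 16 weeks were used to choose the members, so every difference that involves them is given without a test. The levels of Cck, Gast and Gucy2c in ob/ob and lean 6J islets at 16 weeks were also known at that choice. Tests that use those arrays are therefore not independent of the choice for these genes. The 7 tested comparisons share arrays with one another.

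The islet endocrine markers averaged between 12.27 and 12.77 on the 16 arrays, with 7 of 8 measured. Lep stood between 1.69 and 2.58 and Lepr between 2.51 and 4.14, so neither level checks the genotype labels. Enterocyte markers, with 17 of 17 measured, averaged 9.99 on replicate 2 of lean 6J at 6 weeks, 8.39 and 5.71 on the db/db arrays at 16 weeks and 5.47 on replicate 2 of lean KsJ at 16 weeks. They averaged between 3.64 and 4.67 on the other 12 arrays. Acinar markers, with 11 of 14 measured, averaged between 8.65 and 13.14. Uty, a Y-linked gene, was at 7.25 or above on 5 arrays, both ob/ob arrays at 6 weeks and 3 lean arrays, and on 0 db/db arrays. Because whole islets were measured, fewer cells of a type and less RNA per cell cannot be told apart.

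The 250 bases upstream of the start sites of Cck and Gast are shown because the levels of these genes followed each other across the arrays. Those 16 arrays, over which Pearson's r was 0.90, include the arrays used to choose both genes, so nothing is read from this likeness. Both sequences come from RefSeq on GRCm38.p6, where 5 of the 7 members had a promoter. The Cck sequence is chr9:121495695-121495944 on the minus strand, with the core of a cyclic AMP response element in capitals, and the Gast sequence is chr11:100334157-100334406 on the plus strand, with a TATA box in capitals.
Cck: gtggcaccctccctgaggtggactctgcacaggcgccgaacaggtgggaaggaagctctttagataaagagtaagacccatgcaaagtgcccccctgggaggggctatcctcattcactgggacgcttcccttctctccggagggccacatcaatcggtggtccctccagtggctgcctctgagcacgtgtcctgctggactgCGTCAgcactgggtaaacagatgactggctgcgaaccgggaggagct
Gast: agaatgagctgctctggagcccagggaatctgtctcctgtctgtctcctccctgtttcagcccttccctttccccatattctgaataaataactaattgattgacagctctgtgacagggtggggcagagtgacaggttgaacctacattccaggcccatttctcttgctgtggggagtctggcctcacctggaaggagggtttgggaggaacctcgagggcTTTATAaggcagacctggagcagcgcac
The searched core TGACG matched the Cck promoter on its reverse strand, with its first base at -47 from the start site, and 17.8% of 32851 promoters of this length held a match on either strand. The searched TATAAA matched the Gast promoter on its reverse strand at -28, and 12.4% of promoters held a match. E-boxes, CANNTG, occurred 3 times in the Cck promoter and 1 time in the Gast promoter, with 66.2% of promoters holding at least 1.

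Gucy2c, the receptor, was high in obese islets of both models. At 16 weeks its signal was 10.51 and 10.52 in ob/ob islets, against 7.81 and 7.78 in lean 6J islets. The replicates of each group lay close together and the groups did not overlap. The difference was 2.71 ± 0.61, or 6.56-fold, and did not pass the test across all genes (limma adjusted p = 0.086). At 6 weeks it was 9.93 and 10.18 in db/db islets, against 6.998 and 7.13 in lean KsJ islets, again without overlap. That difference of 2.99 ± 0.61 did not pass either (limma adjusted p = 0.309). In the 3 lean groups whose arrays differed in Uty, the Gucy2c signals of the pair lay 0.13 apart in lean KsJ at 6 weeks, 0.93 apart in lean 6J at 6 weeks and 1.35 apart in lean KsJ at 16 weeks. The part of sex in the Gucy2c levels was not tested. At 6 weeks the ob/ob islets had 11.11 and 8.83, against 8.80 and 9.73 in lean 6J islets. Here the groups overlapped, and the difference of 0.70 ± 0.61 was within the spread (limma adjusted p = 0.86). Without ob/ob replicate 1 it became -0.44.

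The ordering of group means put the obese groups above the lean ones for Gucy2c, though the lowest obese and highest lean groups overlapped. The db/db and lean KsJ groups at 16 weeks served to choose the gene, so nothing is read from their places. The means were 10.51 ± 0.0051 in ob/ob at 16 weeks, 10.14 ± 0.117 in db/db at 16 weeks, 10.05 ± 0.174 in db/db at 6 weeks and 9.97 ± 1.61 in ob/ob at 6 weeks (SD, n = 2 each). Lean means followed at 9.26 ± 0.658 in lean 6J at 6 weeks, 7.80 ± 0.0222 in lean 6J at 16 weeks, 7.06 ± 0.0899 in lean KsJ at 6 weeks and 5.75 ± 0.956 in lean KsJ at 16 weeks (SD, n = 2 each). Neighbours from db/db at 16 weeks to lean 6J at 6 weeks overlapped in their arrays, and the other neighbours did not. At 16 weeks db/db islets had 10.22 and 10.06, against 6.43 and 5.07 in lean KsJ islets, a difference of 4.39 ± 0.60 that served to choose the gene. The further pair on the other array design had 8.79 in db/db and 4.84 in lean KsJ.

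**Figure D1:**
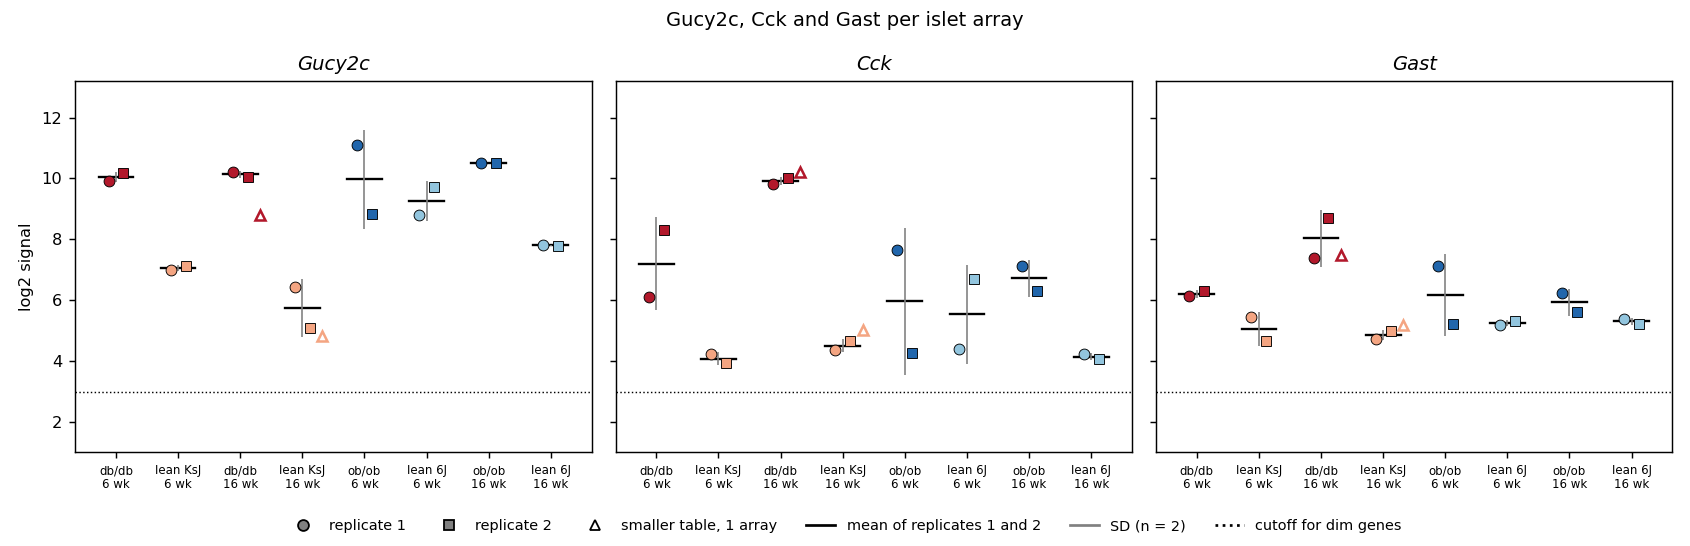
Log2 signal of Gucy2c, Cck and Gast on each of the 16 arrays by group, with circles and squares replicates 1 and 2, lines their mean and SD (n = 2), open triangles the further pair on the other array design, and the dotted line the filter level. At 16 weeks the ob/ob arrays of Gucy2c, at 10.51 and 10.52, lie above the lean 6J arrays at 7.81 and 7.78.

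Enterocyte markers were read beside Gucy2c on the same arrays. At 16 weeks they averaged 3.84 and 3.94 in ob/ob islets, against 3.77 and 3.64 in lean 6J islets. Sis, the intestinal enzyme sucrase-isomaltase, was at 2.65 and 2.42 in ob/ob islets and 2.64 and 2.23 in lean 6J islets, below the filter. With the enterocyte mean as a covariate the Gucy2c difference was 2.70 at 16 weeks, and 2.96 for db/db against lean KsJ at 6 weeks. In that db/db comparison the enterocyte markers averaged 4.67 and 3.95, against 3.65 and 3.81 in lean KsJ islets, without overlap. The enterocyte means of ob/ob and lean 6J at 16 weeks lay so close together that the covariate could change little there. Its fit also used the arrays that chose the members. The part of gut RNA in the Gucy2c levels was not tested. The 11 arrays with an enterocyte mean under 4, a limit chosen after the values were seen, comprised 5 obese and 6 lean arrays. Gucy2c ranged from 8.83 to 11.11 on these obese arrays and from 6.43 to 8.80 on these lean arrays. The lowest obese value was at ob/ob replicate 2 of 6 weeks and the highest lean value at lean 6J replicate 1 of 6 weeks. Lean 6J replicate 2 of 6 weeks, with Gucy2c at 9.73 and so inside the obese range, was left out by the limit. The 6.43 is lean KsJ replicate 1 of 16 weeks, an array that chose the members, and the other lean arrays began at 6.998.

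The ligands of this receptor showed another pattern. Guca2b, uroguanylin, was highest on a lean array. At 6 weeks it was at 3.36 and 3.498 in ob/ob islets, against 3.25 and 10.47 in lean 6J islets. In db/db islets at 16 weeks it was at 4.77 and 10.13, against 2.96 and 5.72 in lean KsJ islets. Replicates of a group lay up to 7.21 apart. The 5 arrays with the highest Guca2b were the 5 arrays with the highest enterocyte mean. Guca2a, guanylin, shared 4 of its highest 5 arrays with them and Gucy2c shared 1. Among the 5 arrays with the highest enterocyte mean were both db/db arrays and lean KsJ replicate 2 of 16 weeks, which chose the members. The part of the enterocyte markers in the guanylin levels was not tested.

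Guca2a reached 7.08 on replicate 2 of db/db at 16 weeks and 4.73 on replicate 2 of lean 6J at 6 weeks, and lay between 2.65 and 3.59 on the other 14 arrays. On the other array design Guca2a was at 6.49 in db/db and 4.56 in lean KsJ, and Guca2b at 9.14 in db/db and 3.35 in lean KsJ. On that design enterocyte markers averaged 8.81 in db/db and 4.07 in lean KsJ. The difference of Guca2b between ob/ob and lean 6J islets at 6 weeks was -3.43 (limma adjusted p = 0.794), and without lean 6J replicate 2 it was 0.17. At 16 weeks, ob/ob minus lean 6J was -0.17 for Guca2a and 0.27 for Guca2b (limma adjusted p = 0.954 and 0.968). RefSeq places both genes next to each other on chromosome 4, with 0 annotated genes between them.

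Cck lay higher in db/db than in lean KsJ islets at 6 weeks, and varied widely between replicates at that age. The replicates lay 2.18 apart in db/db, 3.40 in ob/ob and 2.30 in lean 6J islets, but 0.30 in lean KsJ islets. At 6 weeks the Cck signal was 6.11 and 8.29 in db/db islets, against 4.23 and 3.93 in lean KsJ islets. The groups did not overlap, and the difference of 3.12 ± 1.01 did not pass the test (limma adjusted p = 0.531). It was 4.21 without db/db replicate 1 and 2.03 without db/db replicate 2. At 16 weeks it was 7.14 and 6.29 in ob/ob islets, against 4.24 and 4.06 in lean 6J islets. This difference was 2.57 ± 1.01, without overlap (limma adjusted p = 0.242). At 6 weeks it was 7.66 and 4.26 in ob/ob islets, against 4.38 and 6.68 in lean 6J islets. These groups overlapped, the difference was 0.43 (limma adjusted p = 0.961), and without ob/ob replicate 1 it was -1.27. Replicate 2 of lean 6J at 6 weeks, the higher of the lean pair, was the array with the enterocyte mean of 9.99.

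Gast, the gastrin gene, differed by less than Cck in db/db at 6 weeks and in ob/ob at 16 weeks. At 6 weeks it was at 6.12 and 6.30 in db/db islets, against 5.46 and 4.67 in lean KsJ islets, a difference of 1.14 ± 0.56 (limma adjusted p = 0.61). At 16 weeks it was at 6.24 and 5.61 in ob/ob islets, against 5.39 and 5.22 in lean 6J islets, a difference of 0.62 ± 0.56 (limma adjusted p = 0.631). Neither comparison overlapped and neither passed the test. At 6 weeks it was at 7.13 and 5.23 in ob/ob islets, against 5.18 and 5.32 in lean 6J islets, and the groups overlapped. That difference of 0.93 ± 0.56 (limma adjusted p = 0.801) was larger than the 0.43 of Cck.

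At 16 weeks, in the comparison the members were chosen on, 4 members (Cck, Gast, Gucy2c and Guca2a) lay higher in db/db without overlap, beside 32.8% of all genes, and nothing is read from that count. Cck was at 9.83 and 10.02 in db/db islets, against 4.37 and 4.65 in lean KsJ islets. Gast was at 7.37 and 8.69 in db/db islets, against 4.73 and 4.98 in lean KsJ islets. The differences were 5.42 ± 0.998 for Cck and 3.18 ± 0.55 for Gast. The further pair had Cck at 10.20 in db/db and 5.04 in lean KsJ, and Gast at 7.49 in db/db and 5.17 in lean KsJ. In all groups but db/db at 16 weeks, the Cck means lay between 4.08 and 7.20 and the Gast means between 4.85 and 6.21. With the enterocyte mean as a covariate the differences at 16 weeks were 4.74 for Cck, 2.95 for Gast, 4.25 for Gucy2c, 1.04 for Guca2a and -0.076 for Guca2b, beside 1.99 for Guca2a and 3.11 for Guca2b without it. Markers of enteroendocrine cells, the gut cells that make such peptides, averaged between 4.02 and 5.29 on the 16 arrays, with 8 of 8 measured. Among them Nts was at most 2.56, while Pyy, which islets also make, was between 11.9 and 12.7. Gip was at 5.56 and Sct at 5.17 on replicate 2 of lean 6J at 6 weeks. On replicate 2 of db/db at 16 weeks they were at 5.44 and 4.78. On replicate 1 of that group, with Cck at 9.83, they were at 3.89 and 3.56. Elsewhere on the 16 arrays Gip was at most 4.37 and Sct at most 4.15. The further pair had Gip at 6.46 in db/db and 5.62 in lean KsJ, and Sct at 5.35 in db/db and 4.72 in lean KsJ. Stomach markers averaged between 3.60 and 4.77, with Gkn1 at most 3.48.

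In the order of group means, Cck stood at 9.92 ± 0.130 in db/db at 16 weeks, 7.20 ± 1.54 in db/db at 6 weeks, 6.71 ± 0.596 in ob/ob at 16 weeks and 5.96 ± 2.41 in ob/ob at 6 weeks (SD, n = 2 each). The lean means were 5.53 ± 1.63 in lean 6J at 6 weeks, 4.51 ± 0.203 in lean KsJ at 16 weeks, 4.15 ± 0.126 in lean 6J at 16 weeks and 4.08 ± 0.213 in lean KsJ at 6 weeks (SD, n = 2 each). The db/db group at 16 weeks, used to choose the members, stood apart from its neighbour. The next groups down to lean KsJ at 16 weeks overlapped with theirs. For Gast the means were 8.03 ± 0.931 in db/db at 16 weeks, 6.21 ± 0.127 in db/db at 6 weeks, 6.18 ± 1.34 in ob/ob at 6 weeks and 5.92 ± 0.450 in ob/ob at 16 weeks (SD, n = 2 each). All 4 lean Gast means lay between 4.85 and 5.31. In db/db islets the age differences, 16 weeks minus 6 weeks, were 2.72 for Cck and 1.82 for Gast, against 0.09 for Gucy2c. These use the arrays that chose the members and were not tested.

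On the 5 obese arrays with an enterocyte mean under 4, Cck ranged from 4.26 to 8.29 and Gast from 5.23 to 7.13. On the 6 such lean arrays Cck ranged from 3.93 to 4.38 and Gast from 4.67 to 5.46. Lean 6J replicate 2 of 6 weeks, with Cck at 6.68, was left out by the limit. The obese range of Cck began inside the lean range, at ob/ob replicate 2 of 6 weeks, and the same array gave the lowest obese Gast. The ob/ob arrays at 6 weeks lay 3.40 apart for Cck, 1.90 for Gast and 2.28 for Gucy2c, with replicate 1 the higher in each.

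**Figure D2:**
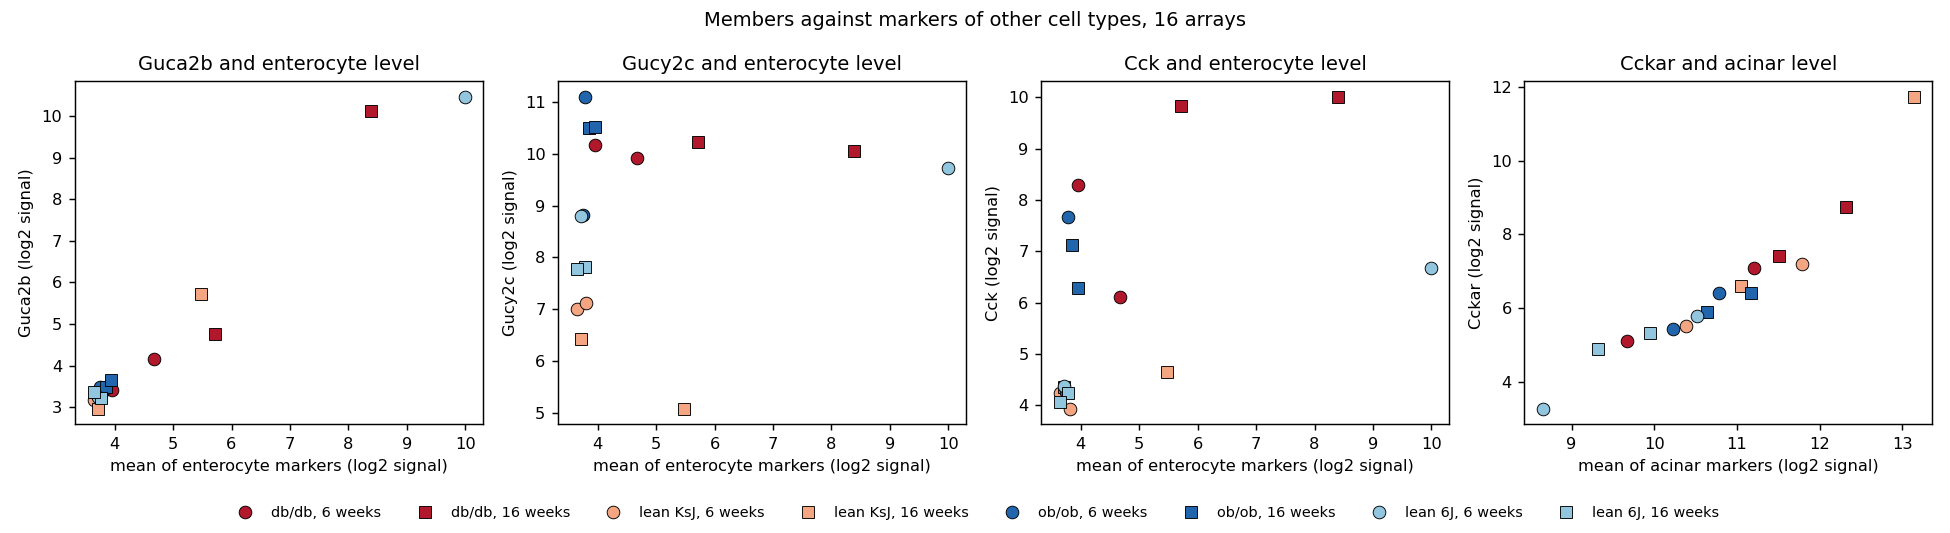
Log2 signal of members against the mean log2 signal of cell type markers on the same array, with each point 1 of the 16 arrays. Guca2b is highest on the arrays with the highest enterocyte mean, up to 9.99, while Gucy2c reaches 10.51 and 10.52 in ob/ob islets with enterocyte means of 3.84 and 3.94. Cckar is set against the acinar mean and is lowest, at 3.26, where that mean is lowest, at 8.65.

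Cckar, the cholecystokinin receptor of mouse acinar cells, was highest where acinar markers were highest. It was at 7.43 and 8.73 in db/db islets at 16 weeks, against 6.59 and 11.75 in lean KsJ islets, and the acinar mean was 11.50 and 12.32 in db/db against 11.05 and 13.14 in lean KsJ. Its highest 5 arrays were the 5 with the highest acinar mean, and its lowest value, 3.26, was on the array with the lowest acinar mean, 8.65. At 16 weeks it was at 6.41 and 5.89 in ob/ob islets, against 5.33 and 4.89 in lean 6J islets, a difference of 1.04 ± 1.39 (limma adjusted p = 0.769), beside acinar means of 11.17 and 10.64 in ob/ob and 9.95 and 9.31 in lean 6J. At 6 weeks it was at 5.11 and 7.08 in db/db islets, against 7.19 and 5.51 in lean KsJ islets, and these overlapped, with a difference of -0.25 ± 1.39 (limma adjusted p = 0.981). The further pair had 8.57 in db/db and 10.86 in lean KsJ, beside acinar means of 12.53 in db/db and 13.21 in lean KsJ. Among the 5 arrays with the highest Cckar were both db/db arrays and lean KsJ replicate 2 of 16 weeks, which chose the members. The part of acinar RNA in the Cckar values was not tested. Cckbr, which binds gastrin and cholecystokinin, was at or above the filter level on 2 of 16 arrays. At 16 weeks it was at 2.62 and 3.30 in db/db islets, against 2.87 and 4.14 in lean KsJ islets. Its highest value, 4.14, was on the lean KsJ array with the highest acinar mean.

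**Figure D3:**
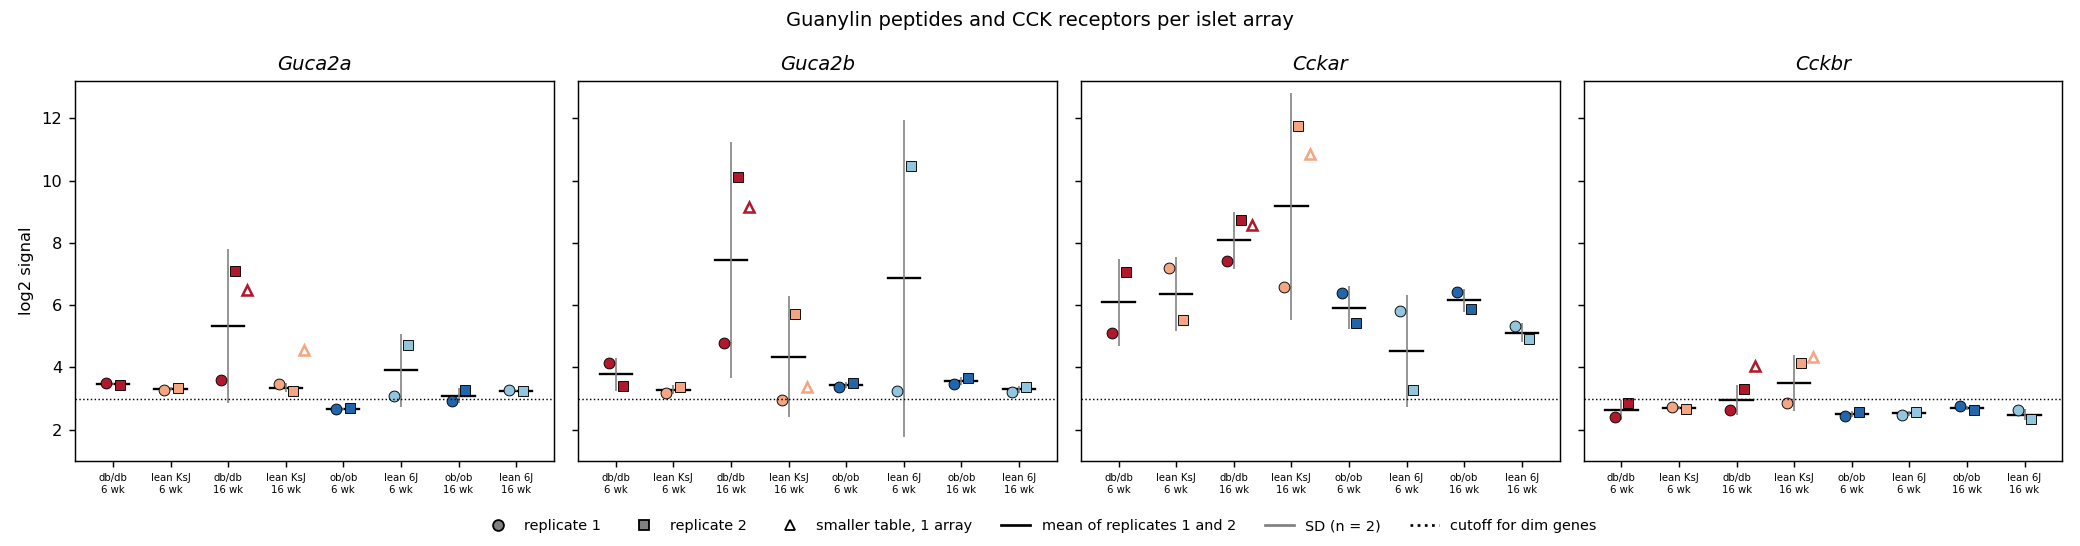
Log2 signal of Guca2a, Guca2b, Cckar and Cckbr on each of the 16 arrays by group, with circles and squares replicates 1 and 2, lines their mean and SD (n = 2), open triangles the further pair on the other array design, and the dotted line the filter level. Replicates of Guca2b differ by up to 7.21, and Cckbr is at 4.14 or below on the 16 arrays.

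Between db/db and lean KsJ islets at 6 weeks, limma called 0 of 6 tested members, with 2 at an unadjusted p under 0.05, against 0.0258% of all genes called and 8.52% at that unadjusted level. The arrays of 5 members (Cck, Gast, Gucy2c, Guca2a and Guca2b) lay higher in db/db without overlap, as did 21.9% of all genes. Of these, Guca2a was at 3.49 and 3.44 in db/db against 3.28 and 3.35 in lean KsJ islets. Guca2b was at 4.15 and 3.40 in db/db against 3.17 and 3.38 in lean KsJ islets. Their differences were 0.15 and 0.50 (limma adjusted p = 0.982 and 0.969). Between ob/ob and lean 6J islets at 16 weeks limma called 0 of 6, with 2 unadjusted, against 0.0708% and 16.6% of all genes. Of the 7 members, 6, all but Guca2a, lay higher in ob/ob without overlap there, as did 28.2% of all genes. The 6 included Cckbr, below the filter and so outside that share, at 2.75 and 2.64 in ob/ob against 2.62 and 2.35. Guca2b was also among them, near the filter level, at 3.48 and 3.64 in ob/ob against 3.21 and 3.38. At 6 weeks limma called 0 of 6 between ob/ob and lean 6J islets, with 0 unadjusted, against 0% and 6.15% of all genes. Guca2a alone among the 7 lay lower in ob/ob without overlap, as did 16.8% of all genes.

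**Figure D4:**
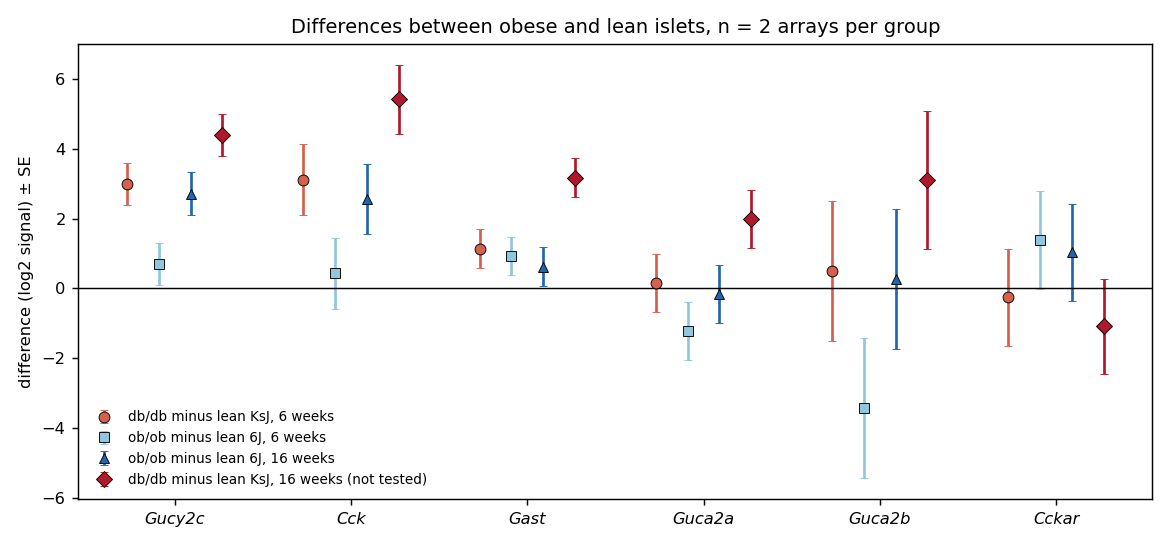
Log2 differences of the members in obese minus lean islets with their standard errors, by model and age. Gucy2c differs by 2.99 in db/db at 6 weeks and by 2.71 in ob/ob at 16 weeks, and by 0.70 in ob/ob at 6 weeks.

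The difference between the db/db effect and the ob/ob effect at 6 weeks was 2.29 ± 0.87 for Gucy2c and 2.69 ± 1.43 for Cck. Without ob/ob replicate 1 these were 3.43 and 4.39, and without ob/ob replicate 2 they were 1.15 and 0.99. Uty was at 3.60 and 3.33 in db/db islets at 6 weeks, against 7.25 and 7.61 in ob/ob islets. Model and apparent sex therefore cannot be told apart in this comparison. Here limma called 0 of 6 members, with 1 unadjusted, against 0% and 2.25% of all genes. Between lean KsJ and lean 6J islets at 6 weeks, Gucy2c differed by -2.20 ± 0.61 (limma adjusted p = 0.378). Limma called 0 of 6 members there, with 1 unadjusted, against 0.258% and 6.65% of all genes. With age, Gucy2c in lean 6J islets differed by -1.47 ± 0.61 and Cck by -1.38 ± 1.01, 16 weeks minus 6 weeks. Limma called 0 of 6, with 1 unadjusted, against 0% and 2.87% of all genes. In ob/ob islets the age differences were 0.55 for Gucy2c, 0.75 for Cck and -0.25 for Gast. Uty was at 2.21 and 2.33 in ob/ob islets at 16 weeks, against 7.25 and 7.61 at 6 weeks, so age and apparent sex cannot be told apart in this comparison. Here limma called 0 of 6, with 0 unadjusted, against 0% and 3.9% of all genes.

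Other genes of these pathways were not called in any of the 7 comparisons. Of 29 cyclic GMP genes, 28 were measured and 23 tested, and their median difference between ob/ob and lean 6J islets at 16 weeks was 0.02, beside -0.03 over all genes, with 12 above 0, beside 47.5% of all genes. Pde1c, a phosphodiesterase stimulated by calmodulin, differed by -0.52 ± 0.17 (limma adjusted p = 0.183). Pde10a, a phosphodiesterase that breaks down cyclic nucleotides, differed by 0.96 ± 0.34 (limma adjusted p = 0.195), and Prkg1, a cyclic GMP-dependent kinase, by -0.78 ± 0.29 (limma adjusted p = 0.215). Of 22 genes of peptide processing and cholecystokinin receptor signalling, 20 were tested, with a median of -0.07 and 7 above 0. Plcb4, a phospholipase C, differed by -0.70 ± 0.22 (limma adjusted p = 0.169), and Itpr3, a calcium channel opened by inositol trisphosphate, by -0.74 ± 0.27 (limma adjusted p = 0.204). Gna14, a G protein subunit of the Gq family, differed by 2.31 ± 0.90 (limma adjusted p = 0.238). Of 23 transcription factors of gut and endocrine cells, 17 were tested, with a median of -0.35 and 2 above 0, beside the same 47.5% of all genes. Prox1, a homeodomain factor, differed by -1.37 ± 0.23 (limma adjusted p = 0.0564), and Gata6, a zinc finger factor, by -1.38 ± 0.40 (limma adjusted p = 0.142). Isl1, a factor of endocrine cells, differed by -0.51 ± 0.23 (limma adjusted p = 0.298).

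Likeness to a member is a description that includes the arrays used to choose the members. Predicted and clone-named genes were left out of the 15526 tested. Among the rest, the genes whose log2 values were most like those of a member over the 16 arrays were ranked by Pearson's r. For Gucy2c they were Ckb at 0.97, Bco1 at 0.96 and Tspan15 at 0.95. Bco1, the enzyme that cleaves beta-carotene, was at 7.64 and 7.24 in ob/ob islets at 16 weeks, against 6.29 and 6.31 in lean 6J islets. For Cck they were Tlr5 at 0.96, Ros1 at 0.93 and Scarf2 at 0.91. Tlr5, the receptor for bacterial flagellin, was at 5.38 and 5.13 in ob/ob islets at 16 weeks, against 3.98 and 4.46 in lean 6J islets. For Gast they were Tspan6 at 0.92, Scarf2 at 0.92 and Cck itself at 0.90.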

How the data were processed

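RNA of hand-picked islets was hybridised to Affymetrix arrays. The deposited values are log2 signals per transcript cluster; the tools MAS5, RMA and Partek are named in the submitters' processing notes, with no roles or versions, and no genome build is stated there. Normalization differed between the 2 tables, and only the larger was tested. Probes were named through the platform annotation, with 23521 of 41034 clusters naming 1 gene, 1814 several and 15699 none; the cluster with the highest mean stood for each of 22180 genes. Group means were modelled across the 16 arrays with limma 3.58.1 (R 4.3.3), with 8 residual degrees of freedom and Benjamini-Hochberg adjustment over 15526 genes. The number of arrays limits the precision. The fit was tested on simulated data. The members, gene lists and comparisons were chosen with earlier results of these data known. Named genes were the members, the 3 genes with the highest r for Cck, Gast and Gucy2c, and from each list the 3 members with the smallest p in ob/ob minus lean 6J at 16 weeks. The ranking by r took in tested genes and left out predicted and clone-named ones. Alternatives covered the filter, centring, normalization, array weights, an enterocyte covariate and leaving out arrays. Tables and figures used Python 3.11.15, pandas 2.3.3 and matplotlib 3.10.9.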

Additional observations from a re-analysis of the deposited data

Results flagged for a closer look

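Cck differed with age in opposite directions in the lean strains. It was 0.43 higher at 16 weeks than at 6 weeks in lean KsJ islets, and the difference was -1.38 in lean 6J islets, 16 weeks minus 6 weeks, with no overlap between ages in either strain. The difference between the strains was not tested. Replicate 2 of lean 6J at 6 weeks, with Cck at 6.68, had an enterocyte mean of 9.99, and without it the lean 6J difference was -0.23.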

How the results depend on the processing

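No paired analysis was possible because the labels give no replicate numbers shared between groups. With array weights, and with the compared groups alone, limma called 1 member, Gucy2c, between db/db and lean KsJ islets at 6 weeks (adjusted p = 0.0345 and 0.0286), beside 28 genes (0.18%) with weights and 4 (0.0258%) with the groups alone, and 2 members, Cck (0.0273 and 0.0243) and Gucy2c (0.002 and 0.0119), between ob/ob and lean 6J islets at 16 weeks, beside 2969 genes (19.1%) with weights and 1293 (8.33%) with the groups alone. Leaving out 1 array at a time gave 0 to 1 members between lean KsJ and lean 6J islets at 6 weeks, the 1 being Guca2b at -7.19 without lean 6J replicate 1, beside 387 genes (2.49%).
With the enterocyte covariate the sign turned for Guca2a (-0.079) and Guca2b (-0.26) in db/db minus lean KsJ at 6 weeks, for Guca2b in ob/ob minus lean 6J at 6 weeks (0.56) and in ob/ob with age (-0.037), for Guca2a (0.57) and Guca2b (0.50) in lean 6J with age, for Gast (0.10), Guca2a (0.62) and Guca2b (0.46) in lean KsJ minus lean 6J, and for Gast (-0.12), Guca2a (-0.044) and Guca2b (-0.82) in the db/db effect minus the ob/ob effect. It also turned for Guca2b (-0.076) in db/db minus lean KsJ at 16 weeks, which was not tested. Without the 3 enterocyte-rich replicate 2 arrays together it turned for Guca2b in ob/ob minus lean 6J at 6 weeks (0.17), for Guca2a (0.18), Guca2b (0.038) and Cckar (-0.68) in lean 6J with age, and for Guca2a (0.24) and Guca2b (0.023) in lean KsJ minus lean 6J.
Leaving out 1 array at a time, ob/ob minus lean 6J at 6 weeks ranged from -1.27 to 2.13 for Cck, -0.022 to 1.88 for Gast, -0.44 to 1.84 for Gucy2c and -7.04 to 0.17 for Guca2b, and at 16 weeks from -0.34 to 0.0088 for Guca2a. Cckar ranged from -1.24 to 0.73 in db/db minus lean KsJ at 6 weeks. In ob/ob with age the ranges were -0.95 to 2.45 for Cck, -1.20 to 0.70 for Gast, -0.59 to 1.69 for Gucy2c and -0.25 to 0.72 for Cckar. In lean 6J with age they were -0.030 to 0.14 for Gast, -1.48 to 0.18 for Guca2a, -7.18 to 0.038 for Guca2b and -0.68 to 1.85 for Cckar. In lean KsJ minus lean 6J they were -0.58 to 0.21 for Gast, -1.42 to 0.24 for Guca2a and -7.19 to 0.023 for Guca2b, and in the db/db effect minus the ob/ob effect -0.73 to 1.17 for Gast. With no change of sign, Gast ranged from 0.75 to 1.54 in db/db minus lean KsJ at 6 weeks and from 0.30 to 0.94 in ob/ob minus lean 6J at 16 weeks, and Cck from -2.54 to -0.23 in lean 6J with age. The cause was not tested.
Over all genes, limma called 4 in db/db minus lean KsJ at 6 weeks, 1 to 28 under other settings and 0 to 4 leaving out 1 array. It called 11 in ob/ob minus lean 6J at 16 weeks, with 0 to 2969 (array weights) and 0 to 3, and 0 at 6 weeks, with 0 and 0 to 321. It called 0 in ob/ob with age, with 0 to 4 and 0 to 8, 0 in lean 6J with age, with 0 and 0 to 335, 40 in lean KsJ minus lean 6J, with 1 to 94 and 5 to 387, and 0 for the difference of effects, with 0 and 0 to 190. The counts of 321, 335, 387 and 190 were without lean 6J replicate 1 of 6 weeks, which leaves the enterocyte-rich array alone in its group.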
